A study of Oryza sativa with 17 samples.

Results

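A small group of genes was transcribed in every red rice library and was close to undetected in every black rice library. The group was defined by 2 thresholds on FPKM, the number of sequenced fragments scaled to transcript length and to all mapped fragments of the library. A gene had to reach an FPKM of at least 10 in all 11 libraries of red rice grain and to stay below 1 in all 6 libraries of black rice grain. Of the 32657 genes in the table, 28 met both conditions, which is 0.0857% of the table and 0.839% of the 3336 genes at or above 10 in all 11 red rice libraries. The levels of red against black rice chose these 28 genes, so they are given below as a description and carry no test. The changes with day and with Fe treatment inside red rice were tested, but they are not free of the choice. The floor of 10 applied to the same red rice libraries. The ceiling of 1 applied to black rice grain of an earlier day, and its bearing on the day comparison was not tested.

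The grains came from 1 black rice variety, Nanheinuo (BR), and 1 red rice variety, Yuhongdao 5815 (RR), grown in pails, with 6 pails in each biological replicate. Plants received a foliar spray of FeSO4 (Fe treatment) or of deionized water (control) when booting ended and again some days afterwards, and nicotinamide and Tween 80 were in both sprays. The labels do not give the FeSO4 concentration of the sequenced Fe libraries, and the study's methods draw their co-expression network from DEGs of the lower concentration, 1Fe, against the control. The 17 libraries formed 6 groups, namely BR control and BR Fe at 10 days after flowering (DAF), RR control and RR Fe at 15 DAF, and RR control and RR Fe at 20 DAF, with 3 libraries each except for the RR control at 15 DAF, which had 2 (replicates 2 and 3) and whose replicate 1 was not analysed here. Variety and day were confounded, because BR was sequenced at 10 DAF only, a day taken from the study's methods, and RR at 15 and 20 DAF only. Whether a gene was off in BR because of the variety or because of the earlier day therefore cannot be told apart. A level of 0 in BR also does not separate a gene that is missing from the Nanheinuo genome from one that differs in sequence from the reference or one that was silent in these grains.

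As background, cultivated rice varieties differ in gene content as well as in sequence, and a gene carried by one variety can be deleted or disrupted in another. Grain colour has a known biochemical basis, in that red pericarp holds proanthocyanidins and black pericarp holds anthocyanins, both products of the flavonoid pathway. During filling the endosperm, the starchy storage tissue, first builds starch and storage proteins such as glutelins and prolamins, and the grain then dries while the embryo and the aleurone, the oil-rich outer cell layer, mature. The assembler used on these reads can also report transcribed loci that the reference annotation lacks, and such loci carry the name NewGene and a number.

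New genes made up most of the group. Of the 28 genes, 16 were new genes (57.1%), beside 12% in the whole table and 3.51% among the 3336 genes at or above 10 in every RR library. The other 12 carried an annotation ID, and the RefSeq gene table (assembly ASM3414082v1) lists 11 of them as protein coding and LOC9266258 as a miscellaneous RNA. No member had a short name there, so no function is given for any of them. The rule turned around, with an FPKM of at least 10 in all 6 BR libraries and below 1 in all 11 RR libraries, gave 8 genes, none of them a new gene, which was 0.323% of the 2478 genes at or above 10 in all BR libraries. The turned rule asked for low values in 11 libraries of 2 days and high values in 6 libraries of 1 day. The counts of 28 and 8 are therefore not like for like.

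Whether members belong to a known pathway could not be looked up, because genes were assigned to pathways by short name. Of the 11 flavonoid genes found by short name, 1 reached 10 in all RR libraries, beside 10.2% of the whole table. It was the phenylalanine ammonia-lyase gene LOC4330034, of the entry step from phenylalanine, at 62.7 to 245 in RR and 46.0 to 140 in BR. The short names found were of phenylalanine ammonia-lyase, coumaroyl-CoA ligase (4CL), chalcone synthase, chalcone isomerase and anthocyanin synthase genes. Other steps of the pathway, among them later steps to proanthocyanidins, were therefore not covered. Chalcone synthase (OsCHS1), the entry enzyme of flavonoid synthesis, stood the other way round, with FPKM of 97.1 to 464 in BR and 0 to 6.68 in RR. The rest of the list was mixed. For example, 4CL4 was at 6.44 to 8.56 in BR and 7.82 to 55.4 in RR, and 4CL2 at 5.58 to 19.6 in BR and 0 to 1.82 in RR.

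In BR the members were at or near the bottom of the scale. 17 of the 28 were listed at 0 in all 6 BR libraries, 10 of them new genes and 7 annotated. The other 11 had a value above 0 in at least 1 BR library, and 2 had one in all 6, namely NewGene_7651, at 0.408 to 0.732, and LOC4334427, at 0.0396 to 0.466. The number of members above 0 was 4, 6 and 4 in the BR control libraries and 10, 4 and 5 in the BR Fe libraries. Their summed FPKM was 0.841, 1.66 and 1.24 in the control and 2.37, 0.881 and 1.27 in the Fe libraries, so the BR groups overlapped.

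The thresholds fell at different places in the distribution of genes. Among the 3336 genes on in RR, 17 had a highest BR value of 0, 6 lay above 0 and below 0.1, 5 lay from 0.1 to below 1 and 11 lay from 1 to below 2, while 2685 reached 10 or more. Few genes thus lay near the BR ceiling. The members closest under it were NewGene_7651, LOC112936087 and LOC4334427, with highest BR values of 0.732, 0.548 and 0.466, and the genes that missed it by least were NewGene_3075 at 1.11, NewGene_3345 at 1.41 and LOC4332697 at 1.44. LOC4332697 is EIL1, a transcription factor of ethylene signalling, and NewGene_3345 was at 209 or more in every RR library. The RR floor ran through a denser stretch, with lowest RR values of 10.5 for NewGene_4900, 11.1 for LOC4333335 and 12.3 for NewGene_8247 just inside it, and of 9.18 for LOC107275885, 8.90 for LOC9271629 and 8.36 for LOC4341188 just outside. A floor of 5 gave 74 genes and a floor of 20 gave 10.

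**Figure D1:**
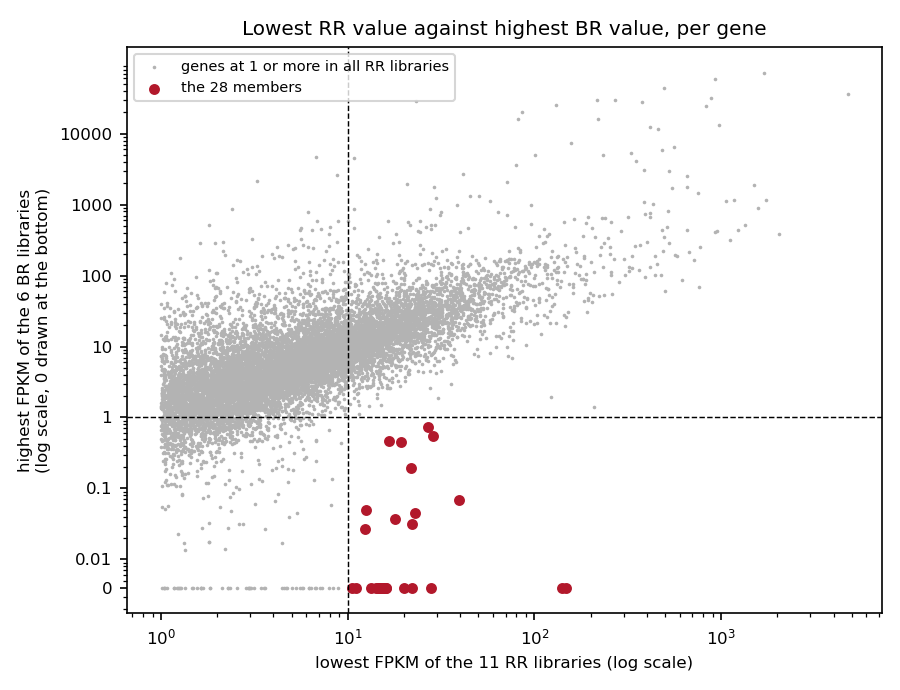
Each point is a gene with an FPKM of at least 1 in all RR libraries, with its lowest FPKM over the 11 RR libraries on the horizontal axis and its highest FPKM over the 6 BR libraries on the vertical axis, both on log scales, with 0 drawn at the bottom. Dashed lines mark the floor of 10 and the ceiling of 1, and the 28 members (red) fill the lower right corner, 17 of them on the line of 0.

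Within RR the members spanned a wide range of levels. Averaged over the 11 RR libraries, 3 members were at 100 or more, 8 from 50 to below 100 and 17 below 50, with a median of 44.6, beside 40.8 for all 3336 genes on in RR. FPKM is scaled by transcript length, so a ranking of genes by level depends on the lengths used. Those of the assembled new genes were not available here and were not checked. NewGene_6602 and NewGene_6606 stood above the rest, and in every RR library the pair held 29.2% to 38.3% of the summed FPKM of the group.

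NewGene_6602 had FPKM of 226 and 141 in the RR control and 226, 444 and 259 in the Fe libraries at 15 DAF, then 654, 515 and 325 in the control and 318, 386 and 292 in the Fe libraries at 20 DAF. Both 15 DAF controls lay below every 20 DAF library, and Fe replicate 2 at 15 DAF lay among the 20 DAF libraries. NewGene_6606 had 243 and 148, then 193, 387 and 288 at 15 DAF, and 335, 530 and 333, then 324, 355 and 359 at 20 DAF, in the same order of groups. Its 20 DAF libraries lay above all 15 DAF libraries except Fe replicate 2. Below this pair followed LOC112936087 with a mean of 101, NewGene_5325 with 99.0, NewGene_7651 with 97.5, LOC4348029 with 85.8, NewGene_6217 with 80.4, LOC4336164 with 71.0, NewGene_2865 with 57.7, NewGene_3014 with 56.8 and NewGene_6623 with 54.7. The lowest mean was that of LOC4333335, at 16.8.

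The spread over the 11 RR libraries differed between members. The ratio of the highest to the lowest RR library ranged from 1.88 to 9.19, with a median of 4.45, beside 3.38 for all genes on in RR. NewGene_4030 was the steadiest, between 15.5 and 29.1, followed by LOC4333335, between 11.1 and 25.5, NewGene_612, between 22.9 and 53.7, and LOC4350580, between 13.3 and 32.5. NewGene_4959, between 14.2 and 131, and NewGene_6217, between 15.2 and 137, varied most. Low values clustered at 15 DAF, where 24 of the 28 members had their lowest library, and in 13 this was control replicate 3. The highest library was at 20 DAF for 23 members. The lowest and highest libraries were not counted for other genes. Of the 3336 genes on in RR, 2783 had a positive change from 15 to 20 DAF, beside 25 of the 28 members.

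**Figure D2:**
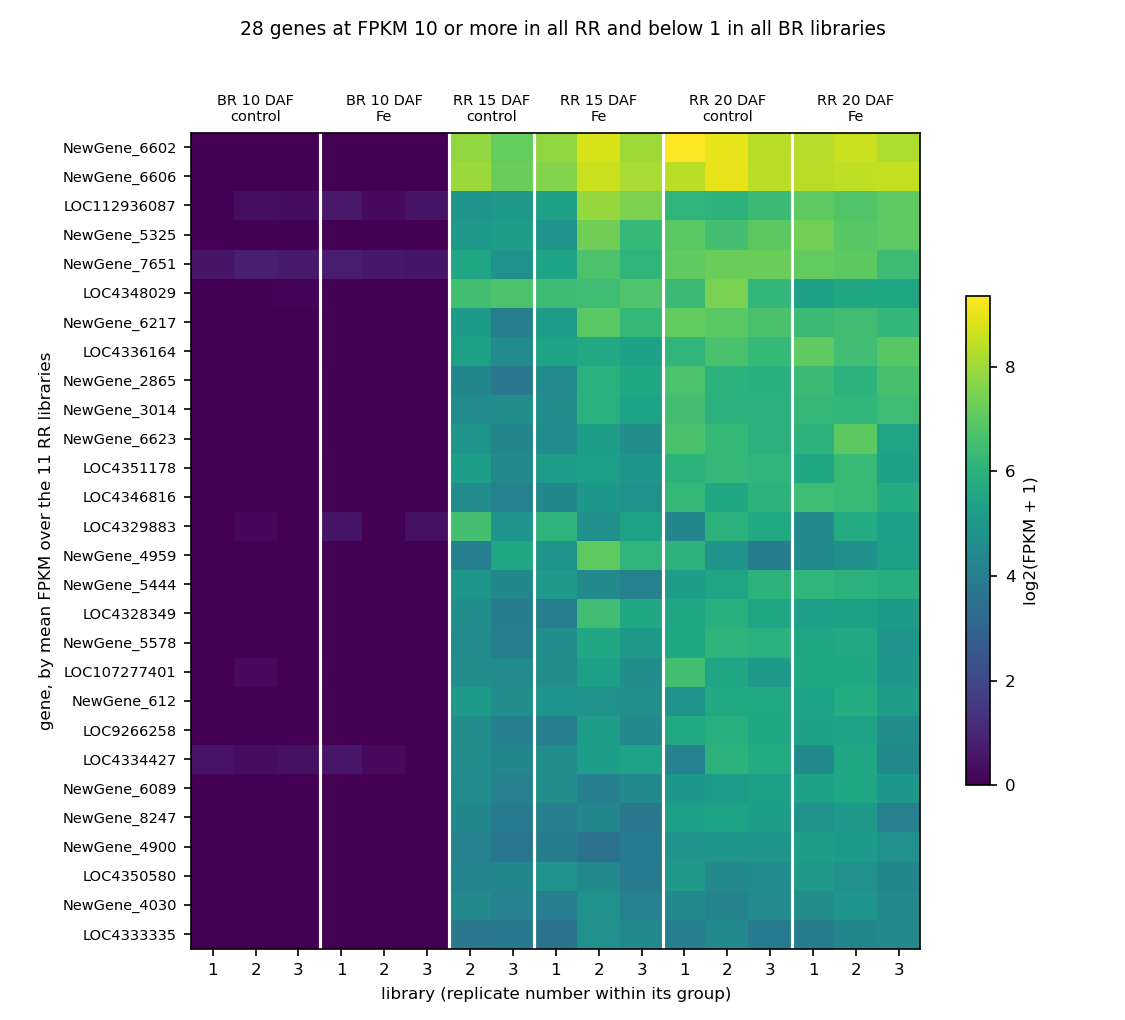
Heatmap of log2(FPKM + 1) for the 28 members (rows, ordered by mean FPKM in RR) in the 17 libraries (columns, by group and replicate number). The 6 BR columns are dark throughout, with the faint rows of NewGene_7651 and LOC4334427 above 0 in all of them, and the RR columns brighten from the 15 DAF controls to 20 DAF.

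The 15 DAF Fe libraries did not form a tight group, and this touches every comparison below. The summed FPKM of the members was 1258 and 914 in the RR controls and 1173, 2390 and 1679 in the RR Fe libraries at 15 DAF, and 2604, 2731 and 2165 in the controls and 2198, 2348 and 1991 in the Fe libraries at 20 DAF. Fe replicate 1 lay with the 15 DAF controls, and Fe replicates 2 and 3 lay between them and the 20 DAF libraries or among the latter. The share of all FPKM held by the 9 endosperm storage genes, all above 0 in every library, moved in the same libraries. It was 30.2% to 35.2% in BR, 17.1% and 22.9% in the 15 DAF controls of RR, 19.2%, 4.82% and 4.97% in Fe replicates 1, 2 and 3 at 15 DAF, and 0.614% to 2.72% at 20 DAF. On the leading axis of a principal component analysis of the 3336 genes (71.2% of the variance), the 15 DAF controls were at −47.5 and −51.0, Fe replicates 1, 2 and 3 at −50.7, 0.0718 and −6.79, and the 20 DAF libraries at 19.8 to 33.0. The 9 embryo and aleurone genes held 0.0373% to 0.280% in BR and 0.710% to 1.71% in RR, and the 4 green tissue genes at most 0.0441% anywhere, so the labelled grain tissue carried its storage markers in all libraries. The part of grain stage in the values below was not tested. Fewer cells of a type and less RNA per cell cannot be told apart in such bulk grain RNA, and FPKM is relative to the total of each library.

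From 15 to 20 DAF in RR, 19 of the 28 members rose (67.9%) and 0 fell at an adjusted p below 0.05 (limma, Benjamini-Hochberg over all 19774 genes tested, control and Fe libraries with equal weight). The background was high, as 43.5% of all genes tested rose and 9.21% fell, and among the 3336 genes on in RR 50.2% rose and 5.82% fell. The median change of the members on the log2(FPKM + 1) scale was 0.88, beside 0.53 for all genes tested and 0.67 for the genes on in RR. 25 members had a positive and 3 a negative change, a split that other scalings of the libraries altered (given below). The floor of 10 at 15 DAF and at 20 DAF limited how far a member could fall or how low it could start. Low values in BR, which was sampled at an earlier day, were also part of the choice. The share of members that rose is therefore not independent of the rule.

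The members with the smallest p were LOC4346816, LOC4336164, NewGene_2865 and NewGene_4900. LOC4346816 had FPKM of 21.6 and 16.1 in the control and 19.7, 31.0 and 26.6 in the Fe libraries at 15 DAF, and 74.4, 46.4 and 65.9 in the control and 85.5, 78.9 and 55.1 in the Fe libraries at 20 DAF. All 6 libraries of 20 DAF lay above all 5 of 15 DAF. Its log2 change was 1.56 (SE 0.209, limma adjusted p = 4.02e-05).

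LOC4336164 followed with 38.4 and 22.0, then 42.4, 49.2 and 39.8 at 15 DAF, and 68.3, 101 and 75.4, then 135, 88.8 and 120 at 20 DAF, control before Fe. Its days did not overlap either, and the log2 change was 1.39 (SE 0.209, limma adjusted p = 9.23e-05). NewGene_4900 rose at a lower level, from 14.1 ± 3.28 (SD, n = 2) in the control and 13 ± 2.14 (SD, n = 3) in the Fe libraries at 15 DAF to 29.5 ± 0.793 (SD, n = 3) and 31.8 ± 5.42 (SD, n = 3) at 20 DAF, a log2 change of 1.13 (SE 0.186, limma adjusted p = 0.000182).

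NewGene_2865 changed as much as LOC4346816, by 1.59 on the log2 scale (SE 0.242, limma adjusted p = 9.98e-05), but its days overlapped. It had FPKM of 18.6 and 12.6 in the control and 22.0, 61.6 and 47.6 in the Fe libraries at 15 DAF, and 103, 64.5 and 59.9, then 81.2, 66.0 and 97.7 at 20 DAF. Only Fe replicate 2 at 15 DAF reached into the 20 DAF range. In 8 members the libraries of the days did not overlap, all of them higher at 20 DAF (LOC4336164, NewGene_3014, NewGene_6623, LOC4351178, LOC4346816, NewGene_5444, NewGene_6089 and NewGene_4900), beside 17.1% of all genes tested that were higher without overlap and 3.84% that were lower.

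The remaining risers covered log2 changes from 0.61 to 1.59. NewGene_6623 had the upper value (SE 0.271, limma adjusted p = 0.000232), NewGene_7651 changed by 1.40, NewGene_5325 by 1.34, NewGene_6217 by 1.30, NewGene_3014 by 1.28 and NewGene_5444 by 1.19, and NewGene_612 by 0.61 (limma adjusted p = 0.0305). The pair with the highest levels changed less, NewGene_6602 by 0.79 and NewGene_6606 by 0.67 (limma adjusted p = 0.0112 and 0.0171). By kind, 14 of the 16 new genes and 5 of the 12 annotated genes rose, with median log2 changes of 1.04 and 0.61. The shares of all new genes and of all annotated genes that rose were not counted, so these counts by kind have no background. The difference between the kinds was not tested.

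Of the 9 members that did not pass, 3 had a negative log2 change, namely NewGene_4959 at −0.52, LOC4348029 at −0.51 and LOC4329883 at −0.31, with limma adjusted p of 0.281, 0.0800 and 0.518. LOC4348029 had FPKM of 91.2 and 107 in the control and 84.8, 87.4 and 108 in the Fe libraries at 15 DAF, and 82.1, 179 and 71.6 in the control and 39.7, 48.1 and 44.5 in the Fe libraries at 20 DAF. The 20 DAF Fe libraries were lowest, and control replicate 2 at 20 DAF was highest. The other 6 were LOC112936087, LOC4328349, LOC4350580, LOC4334427, NewGene_4030 and LOC4333335, with log2 changes between 0.14 and 0.62.

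How many members moved in each direction depended on how libraries were scaled to each other. The shift of the median gene by 0.53 on the log2 scale was removed when each library was centred on its own median. Relative to that centre 12 members rose and 2 fell (LOC4348029 at −1.04 and NewGene_4959 at −1.06, limma adjusted p = 0.00195 and 0.0442), beside 19.4% of all genes higher and 21.5% lower. With quantile normalization 9 rose and 4 fell, beside 20.7% and 16%. The sign of the change turned from positive to negative in 4 members under centring and in 7 under quantile normalization, of which 2 were then called. LOC4346816, LOC4336164, NewGene_2865 and NewGene_4900 rose under both. The calls also depended on single libraries. Leaving out RR Fe replicates 2 and 3 at 15 DAF together was an alternative chosen after seeing the data, and its calls are not given. Leaving out RR control replicate 3 at 15 DAF ended the calls of NewGene_6602, NewGene_6606, LOC107277401, NewGene_612, LOC9266258 and NewGene_8247. Those of NewGene_6602, NewGene_6606, LOC107277401 and NewGene_612 were also lost without Fe replicate 3 at 15 DAF, that of LOC107277401 without control replicate 2 at 15 DAF, and that of NewGene_612 without any of several other libraries. Calls were gained by LOC112936087 and LOC4328349 without Fe replicate 2 at 15 DAF, and by LOC4348029, at −0.71 (limma adjusted p = 0.00577), without control replicate 2 at 20 DAF. The fits without control replicate 3 and without Fe replicates 2 and 3 left a single library in a group at 15 DAF. For fits with libraries left out, the share of all genes called between the days is not given, so these lost and gained calls have no background.

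The day difference was seen in the controls more than in the Fe libraries. In the controls alone 20 members rose and 0 fell from 15 to 20 DAF, beside 40.2% and 7.35% of all genes tested. The median log2 change was 1.18 for the members, 0.68 for all genes and 0.88 for the genes on in RR. In 22 members the controls of 20 DAF lay above those of 15 DAF without overlap and in 0 below, beside 54.3% and 11% of all genes. In the Fe libraries alone 5 members rose and 0 fell, beside 6.93% and 2.27%, namely LOC4346816, NewGene_5444, NewGene_4900, LOC4336164 and NewGene_6623. Here the median change was 0.55 for the members, 0.38 for all genes and 0.48 for the genes on in RR. The Fe libraries of the days did not overlap in 10 members that were higher at 20 DAF and in 1 that was lower (LOC4348029), beside 25.3% and 9.05%. Whether the day change differed between control and Fe is tested by the difference between the Fe responses of the days, given below. That test called 0 members.

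**Figure D3:**
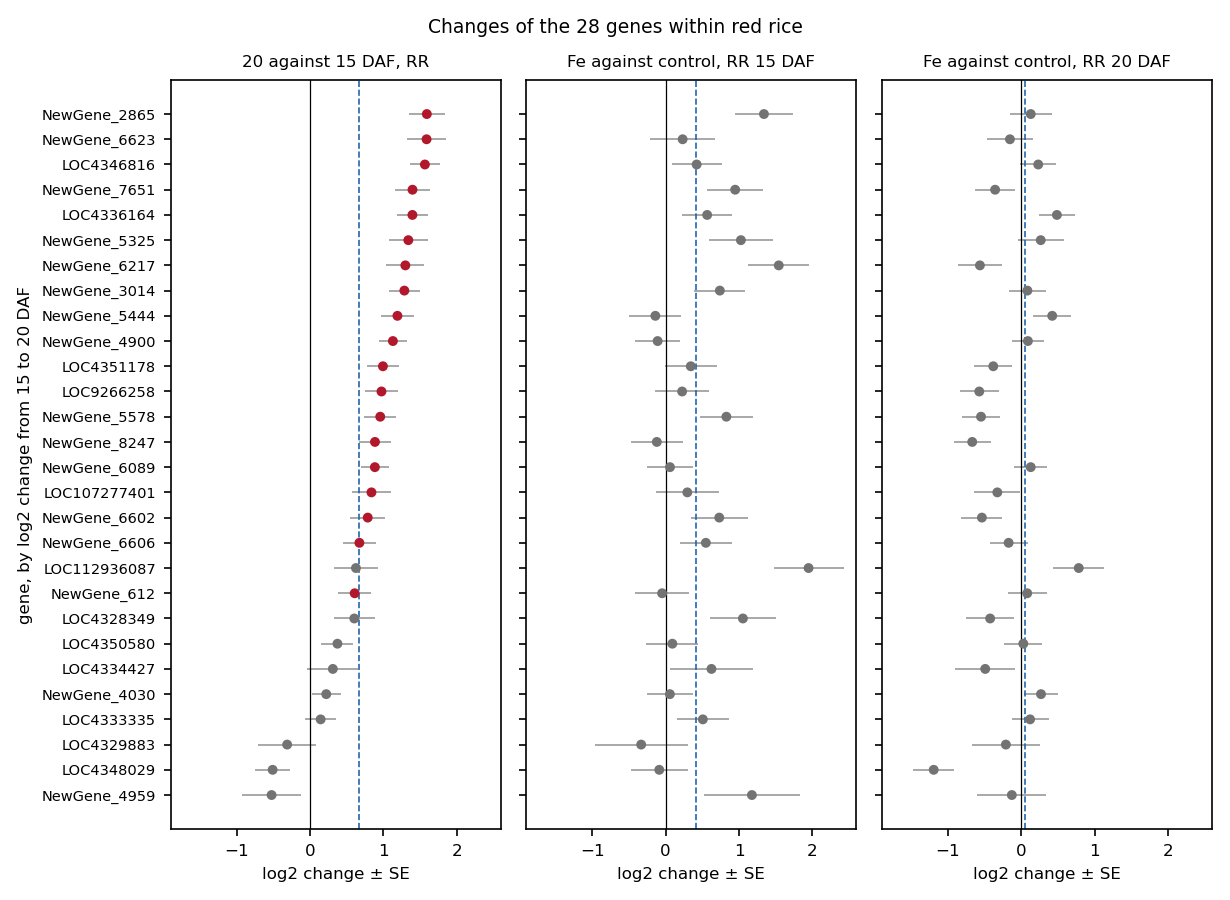
Log2 changes of the 28 members with their standard errors for 20 against 15 DAF and for Fe against control at 15 and at 20 DAF, all within RR, in rows ordered by the day change. Red points passed an adjusted p of 0.05 and are found in the day comparison only (19 members), and the dashed line in each panel is the median of all 3336 genes on in RR.

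Fe treatment at 15 DAF changed 0 of the 28 members at an adjusted p below 0.05, and 0.00% of all genes tested passed (limma, smallest adjusted p 0.595). At an unadjusted p below 0.05, 8 members were higher and 0 lower, beside 1300 and 314 of all 19774 genes. The median log2 change of the members was 0.46, beside 0.29 for all genes and 0.42 for the genes on in RR, and 22 of 28 were above 0. 6 members had all Fe libraries above both controls, beside 13.7% of all genes, and 0 had them below, beside 3.05%.

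LOC112936087 had the largest difference. Its FPKM was 28.6 and 32.2 in the controls and 39.5, 237 and 182 in the Fe libraries at 15 DAF. All Fe libraries lay above the controls, Fe replicate 1 by little and replicates 2 and 3 by far, and the log2 change was 1.95 (SE 0.476, limma adjusted p = 0.595).

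NewGene_6217 had FPKM of 33.6 and 15.2 in the controls and 34.3, 123 and 73.9 in the Fe libraries, with a log2 change of 1.54 (SE 0.417, limma adjusted p = 0.595), and NewGene_2865 and NewGene_7651 changed by 1.34 and 0.95. In the other direction LOC4329883 had the most negative change, −0.33 (limma adjusted p = 0.864), from FPKM of 92.9 and 28.7 in the controls to 67.5, 24.6 and 40.9 in the Fe libraries, which overlapped widely. NewGene_5444, NewGene_8247 and NewGene_4900 had changes of −0.14, −0.12 and −0.11.

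The split among the 15 DAF Fe libraries ran through many members. Fe replicates 2 and 3 were both above the other 3 libraries of 15 DAF in 15 members (53.6%), beside 47.1% of all genes tested and 61.4% of the genes on in RR. With Fe replicate 1 left out, 8 members were called higher (11.7% of all genes higher, 2.44% lower), namely LOC112936087, NewGene_6217, NewGene_2865, LOC4328349, NewGene_5325, NewGene_7651, NewGene_3014 and NewGene_5578, with LOC112936087 at 2.74 (limma adjusted p = 7.52e-05). With replicates 2 and 3 left out instead, the median change was 0.06. A single Fe library then remained at 15 DAF, so calls from that fit are not given. The same replicates 2 and 3 had the low storage shares given above, and the part of that in these values was not tested.

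For Fe treatment at 20 DAF, 0 members passed an adjusted p below 0.05 as well, beside 0.00506% of all genes higher and 0.0202% lower (limma). At an unadjusted p below 0.05, 1 member was higher and 4 were lower, beside 506 and 488 of all genes. The median log2 change was −0.14 for the members and −0.0006 for all genes. Libraries did not overlap in 1 member higher under Fe, LOC112936087 (5.15% of all genes), and in 5 lower, LOC4348029, NewGene_8247, LOC9266258, NewGene_6217 and LOC4328349 (3.75% of all genes).

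LOC4348029 had the smallest p, with a mean FPKM of 111 ± 59.0 (SD, n = 3) in the control and 44.1 ± 4.24 (SD, n = 3) under Fe, and a log2 change of −1.19 (SE 0.279, limma adjusted p = 0.381). NewGene_8247 had 37.5, 42.5 and 35.6 in the control and 27.1, 31.5 and 15.8 under Fe, a log2 change of −0.67 (SE 0.254, limma adjusted p = 0.817). LOC9266258 and NewGene_5578 had changes of −0.57 and −0.55.

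LOC112936087 was the member with all Fe libraries above all controls on both days, a pattern whose share over all genes was not counted. At 20 DAF its FPKM was 67.8, 65.9 and 81.2 in the control and 129, 113 and 129 under Fe, a log2 change of 0.78 (SE 0.345, limma adjusted p = 0.954). LOC4336164, NewGene_5444 and NewGene_4030 had the next smallest p among the members with a positive change, with changes of 0.49, 0.42 and 0.27.

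The Fe responses of the days were compared directly by an interaction term. The response at 20 DAF minus that at 15 DAF passed for 0 members (0.00% of all genes higher and 0.0152% lower, limma, smallest adjusted p among the members 0.90). At an unadjusted p below 0.05, 7 members were lower and 0 higher, beside 676 and 137 of all genes. The median difference was −0.69 for the members, −0.29 for all genes and −0.38 for the genes on in RR. The day and Fe comparisons were all drawn from the same 11 RR libraries. Without RR Fe replicate 1 at 15 DAF, 3 members passed as lower (LOC112936087, NewGene_6217 and LOC4328349), beside 1.04% of all genes lower and 0.575% higher.

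**Figure D4:**
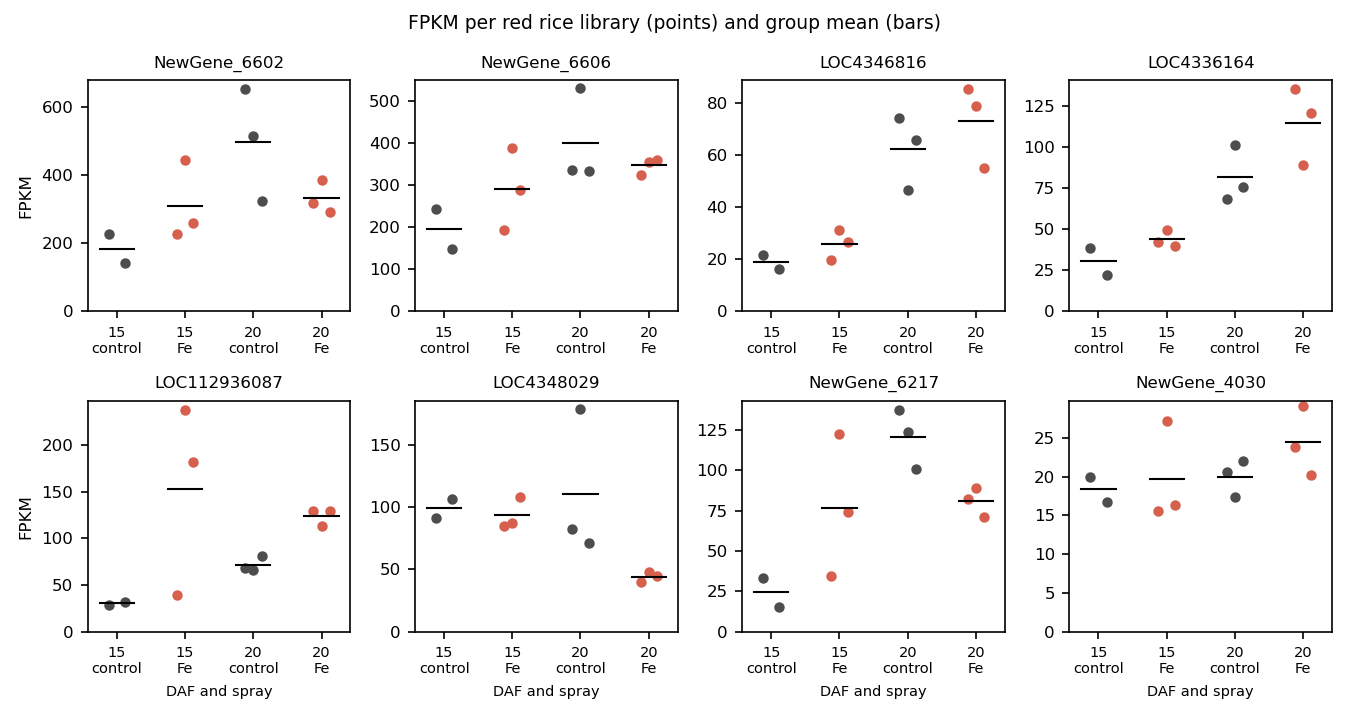
FPKM in each RR library (points) and group means (bars) of 8 members, for control (grey) and Fe (red) at 15 and 20 DAF, each panel starting at 0. LOC4346816 and LOC4336164 separate the days, LOC112936087 is higher under Fe on both days, LOC4348029 is lowest in the 20 DAF Fe libraries, and NewGene_4030 stays between 15.5 and 29.1.

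The members did not move as a block over the RR libraries. Over the 378 pairs of members the median Pearson's r of log2(FPKM + 1) across the 11 RR libraries was 0.545, beside 0.507 over all pairs of the 3336 genes on in RR, and 72 pairs (19.0%) had r over 0.8, beside 19.9% of all pairs. These values describe libraries of 2 days that share their depth and composition, and they carry no test. The closest pair was NewGene_2865 and NewGene_3014 with r = 0.971 (n = 11 libraries). NewGene_6602 and NewGene_6606, the most abundant members, had r = 0.843. LOC4348029, LOC4329883 and NewGene_4959 ran against others, down to r = −0.685 between NewGene_4959 and NewGene_612.

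Annotated members were also looked at beside the genes next to them, in the gene order of the RefSeq table. Genes of that table without an FPKM value were skipped, so genes called adjacent or consecutive here may have others between them. The order is that of assembly ASM3414082v1, whereas the reads were aligned to IRGSP-1.0. No annotated member lay within 3 genes of another annotated member, and the closest of them on a chromosome were 200 genes apart. The new genes have no place in this order, so their distances are not known. The 12 annotated members had 24 adjacent genes, of which 8 had a mean RR FPKM of at least 1. Of those 8, 5 (62.5%) were below 1 in every BR library and 3 (37.5%) were listed at 0 in all of them. Around those of the 3336 genes on in RR that had a place in this order, 573 of 4037 such neighbours (14.2%) were below 1 in every BR library and 0.347% were at 0. These are descriptions of the RR and BR levels that the rule also used, in other genes.

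The gene beside LOC4346816, LOC107278789, was at 0 in all BR libraries and had FPKM of 8.65 and 11.3 in the control and 5.74, 20.3 and 11.7 in the Fe libraries at 15 DAF, and 21.9, 13.4 and 17.7, then 25.8, 22.6 and 16.7 at 20 DAF. It missed the floor of 10 in 2 libraries. LOC4336163, beside LOC4336164, was likewise at 0 in BR and between 3.42 and 14.8 in RR. Low in BR were also LOC107275615, beside LOC4328349, at 0 to 0.0858 in BR and 2.43 to 6.77 in RR, and LOC9270483, beside LOC9266258, at 0.197 to 0.494 in BR and 0.313 to 6.51 in RR.

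A run of such genes stood beside LOC4350580, where 4 genes consecutive in this order were at 0 in all 6 BR libraries and above 2 in all 11 RR libraries. LOC4350580 itself was at 13.3 to 32.5 in RR, LOC4350579 at 3.01 to 6.17, LOC4350578 at 3.04 to 21.3 and LOC9268566 at 2.56 to 12.3. LOC4350578 had 3.04 and 3.05 in the control and 3.33, 7.48 and 4.62 in the Fe libraries at 15 DAF, and 14.2, 13.3 and 15.8, then 16.9, 21.3 and 8.10 at 20 DAF. Its days did not overlap, whereas those of LOC4350580 did.

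**Figure D5:**
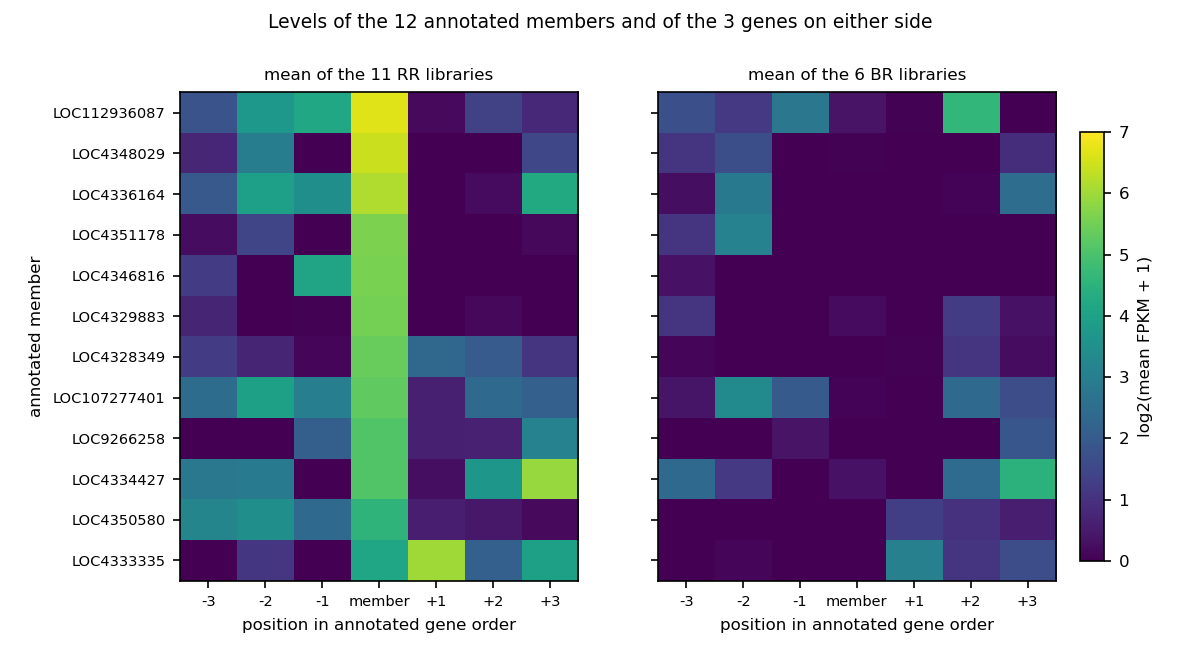
Mean level as log2(mean FPKM + 1) of the 12 annotated members (column "member") and of the 3 genes on either side in the annotated order of genes with an FPKM value, in RR (left) and BR (right). The member column is bright in RR and dark in BR, and in the row of LOC4350580 the 3 genes before it are also on in RR and at 0 in BR in all libraries.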

How the data were processed

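The authors aligned clean reads of poly(A)-selected grain RNA to the rice reference IRGSP-1.0 with HISAT2 and assembled them with StringTie, and deposited FPKM per gene and library. The versions of both tools and how fragments were counted are not given in the sources used here. No counts were used and the depth is unknown, since a search for the step of a single read found at most 4 of 548 low genes at a common ratio (tolerance 0.001 log2), so no counting interval is given.

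DESeq2, the tool the authors used, was not used here, since it needs counts. In its place log2(FPKM + 1) was tested in R 4.3.3 with limma 3.58.1, so fold changes of low genes are understated. A gene was kept if 2 or more libraries had an FPKM of at least 1 (19774 genes, all 28 members among them, which their RR levels ensured). The model held the means of the 6 groups and took in all 17 libraries, each group with its own variance factor from arrayWeights, followed by eBayes with trend. Tests were two-sided, and Benjamini-Hochberg adjustment covered all genes tested. The code was tested on simulated data with 200 changed genes.

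Samples were grouped by their titles. Replicate numbers were not taken as pairs, since the correlation of deviations of same-numbered libraries ranged from −0.357 to 0.231. Where a control library of RR at 15 DAF was left out, the remaining one was assumed to vary like the other libraries of its day.

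The members and lists were chosen with earlier results of these data known, and the short-name patterns of the lists were written after the files were seen. Named were the 10 members with the highest mean, the 4 smallest p values in each direction of each contrast, and those nearest the thresholds. The other members were named to account for all 28. The adjacent genes and the single flavonoid genes were named after their values were seen. Of 28737 annotation IDs, 27491 were matched to the RefSeq table, 2881 with a short name. No protein or genome sequence was used, so a planned comparison of proteins was not run.

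Alternatives were a pseudocount of 0.1, no filter or a filter of 5, no variance factor, centring, quantile normalization, a replicate block, RR libraries only, the thresholds of the study (adjusted p below 0.01 and fold change of at least 1.5), other floors and ceilings, and leaving out each library.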

Additional observations from a re-analysis of the deposited data

Results flagged for a closer look

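NewGene_6217 was singled out because its Fe responses pointed in opposite directions on the 2 days without overlap of libraries. The share of all genes with this joint pattern was not counted. Singly, 13.7% of all genes were higher under Fe without overlap at 15 DAF and 3.75% were lower at 20 DAF. At 15 DAF its FPKM was 33.6 and 15.2 in the RR controls and 34.3, 123 and 73.9 under Fe, so all Fe libraries were above all controls, Fe replicate 1 by less than 1 FPKM. At 20 DAF it was 137, 124 and 101 in the controls and 82.4, 89.3 and 71.3 under Fe, so all Fe libraries were below all controls. The response at 20 DAF minus that at 15 DAF was −2.10 on the log2 scale (SE 0.515, limma adjusted p = 0.90, unadjusted p = 0.000735), which did not pass. Without RR Fe replicate 1 at 15 DAF the difference was −2.59 (limma adjusted p = 0.00864), and 1.04% of all genes then passed as lower and 0.575% as higher. The left-out replicate had an endosperm storage share of 19.2%. Fe replicates 2 and 3, which remained, had 4.82% and 4.97%, and the part of this in the difference was not tested. Groups of 2 or 3 libraries are too small for a check of single outlying libraries.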

How the results depend on the processing

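The number of genes meeting the rule was 28 as reported, 74 with an RR floor of 5 and 10 with a floor of 20, 26 and 39 with BR ceilings of 0.5 and 2, and 28 to 33 when single libraries were left out, the upper value without RR control replicate 3 at 15 DAF. For 20 against 15 DAF, 19 members were called, 5 in the Fe libraries alone, 20 in the controls alone, 15 at the thresholds of the study and 13 to 21 with single libraries left out. At the thresholds of the study, 5887 of all 19774 genes rose and 1170 fell between the days. Among the 3336 genes on in RR, 1153 rose and 144 fell. The sign of the day change turned in 7 members under quantile normalization, to −0.047 in NewGene_612, −0.45 in NewGene_4030, −0.50 in LOC4333335, −0.34 in LOC4334427, −0.29 in LOC4350580, −0.081 in LOC4328349 and −0.011 in LOC112936087. Of these only NewGene_612 had been called before, and NewGene_4030 and LOC4333335 were called after it (limma adjusted p = 0.0208 and 0.0491). Centring turned 4, to −0.22 in LOC4334427, −0.16 in LOC4350580, −0.31 in NewGene_4030 and −0.39 in LOC4333335, with 0 called. NewGene_4959 was at 0.051 with RR Fe replicates 2 and 3 at 15 DAF both left out, LOC4329883 at −0.73 to 0.10 and LOC4333335 at −0.023 to 0.26 with single libraries left out. For Fe at 15 DAF, where no member was called, leaving out single libraries gave −1.16 to 0.50 for LOC4329883, −0.43 to 0.15 for NewGene_5444, −0.36 to 0.12 for NewGene_8247 and −0.33 to 0.11 for NewGene_4900, and leaving out Fe replicates 2 and 3 gave 0.38, 0.36 and 0.049 for LOC4329883, NewGene_5444 and NewGene_4900. Over all 28 members, Fe changes at 15 DAF turned sign in 5 under centring, 7 under quantile normalization, 10 without Fe replicates 2 and 3 and up to 6 without a single library, and at 20 DAF in up to 4 without a single library. Of those that turned under centring or quantile normalization, 0 were called. The causes were not tested. With a replicate block the counts were 19, 0, 0 and 0 for the day, Fe at 15 DAF, Fe at 20 DAF and the difference between Fe responses, so the pairing by number changed no call count. For Fe at 15 DAF the count was 0 to 8 with single libraries left out and for the difference between Fe responses 0 to 3, both upper values without RR Fe replicate 1 at 15 DAF. For Fe at 20 DAF it was 0 in all alternatives. The calls of Fe at 15 DAF depend on which of 3 unlike Fe libraries enter. Depth is unknown, and variety and day cannot be told apart.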
